A study of Mus musculus with 5480 samples.

Results

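Bone morphogenetic proteins (BMPs) are secreted signals of the transforming growth factor family. A BMP binds paired receptors on the cell surface, the receptors activate Smad proteins inside the cell, and the Smads switch on target genes, of which the Id genes are among the best known. Secreted modulators bind BMPs outside the cell and limit or shape their action. In the lung, BMP4 from distal mesenchyme and epithelium takes part in branching and in the growth of the air sacs. Described here are 9 genes of this pathway in mesenchymal cells of the mouse lung, taken by name out of the 18072 genes of the count table. They are 4 ligand genes (Bmp2, Bmp3, Bmp4 and Bmp5), 2 genes for secreted modulators (Bmper and Chrdl1) and 3 Id genes (Id1, Id3 and Id4). All 9 were found.

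The study sorted mesenchymal cells from distal mouse lung and sequenced them one by one in plates. Groups were mice at embryonic day 18.5 (E18.5), postnatal day 1 (P1), day 7 (P7) and day 21 (P21) kept in normal air, and mice at P7 kept in hyperoxia, which is air enriched in oxygen. Each of the 5 groups held 1 female and 1 male, so the spread in a group is between 2 mice of different sex. The labels used here name no transgene or mutation in any group, and the strain, the oxygen concentration and the days of exposure were not given in the sources used here.

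RefSeq promoter sequences (GRCm38.p6) were at hand for 5 of the 9 genes, Bmp4, Bmp5, Bmper, Id3 and Id4, and none is printed for Bmp2, Bmp3, Chrdl1 and Id1. The 250 bases before the start are shown for 3 genes on which the results turn, 5′ to 3′ on the gene's own strand. Id3 and Id4 are the Id genes with their highest levels in muscle subtypes, and Bmper is the gene that passed the test between P7 and P21. Capitals mark 2 short motifs that Smad proteins are known to bind, CAGAC (on the other strand GTCTG) and GGCGCC, which reads the same on both strands. Id3 lies at chr4:136143572-136143821, Id4 at chr13:48260866-48261115 and Bmper at chr9:23222826-23223075.
Id3: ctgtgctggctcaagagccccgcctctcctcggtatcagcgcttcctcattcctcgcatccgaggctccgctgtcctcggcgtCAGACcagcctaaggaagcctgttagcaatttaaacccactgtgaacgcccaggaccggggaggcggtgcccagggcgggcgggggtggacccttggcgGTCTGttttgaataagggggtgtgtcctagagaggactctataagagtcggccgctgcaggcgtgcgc
Id4: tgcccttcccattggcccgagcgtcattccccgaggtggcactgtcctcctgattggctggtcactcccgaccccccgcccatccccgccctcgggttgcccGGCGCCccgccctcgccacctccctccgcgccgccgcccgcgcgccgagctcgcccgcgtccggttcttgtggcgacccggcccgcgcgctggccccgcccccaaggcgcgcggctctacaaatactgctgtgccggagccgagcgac
Bmper: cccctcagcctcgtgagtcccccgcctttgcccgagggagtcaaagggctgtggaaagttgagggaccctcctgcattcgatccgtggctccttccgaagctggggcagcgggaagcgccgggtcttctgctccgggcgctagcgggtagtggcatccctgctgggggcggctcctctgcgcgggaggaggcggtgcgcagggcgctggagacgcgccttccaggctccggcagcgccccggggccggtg

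The Id3 window held CAGAC or its complement 2 times, with first bases at positions -167 and -68 from the start, and no GGCGCC. The Id4 window held GGCGCC once, at -148, and no CAGAC. Neither motif was in the Bmper and Bmp4 windows, and the Bmp5 window held 1 CAGAC, at -134. Such matches are common: 42.2% of the 32851 mouse promoters in the table held CAGAC in the same 250 bases, and 9.59% held GGCGCC. The 2 motifs share no overlapping match in these windows, and a match is a description of the letters only.

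The table held 5480 cells with a median of 774305 reads per cell, from 39358 to 5177020. Mice gave 311 to 633 cells and 294154721 to 671766116 reads each. Cells were grouped by the subtype names that the authors deposited, 16 in all, of which 15 had at least 10 cells in 1 or more mice. Levels are CPM, a gene's reads scaled to a common total of reads per library, after summing the cells of a subtype or class in each mouse. RPKM divides CPM by the gene's exon length and is used where genes are compared with each other. For tests, cells of an early subtype and of its later namesake were put together as a class. Precursor, proliferating and male hyperoxic subtypes were in no class and entered no test. Marker lists gave their highest summed level in the subtype of the same name for alveolar and adventitial fibroblasts, vascular smooth muscle, pericytes and dividing cells. The myofibroblast list had a median of 7823 CPM in myofibroblasts, which ranked 4 on it. Above them were early airway smooth muscle (18524 CPM), airway smooth muscle (9497 CPM) and myofibroblast and smooth muscle precursors (8116 CPM). The airway muscle list was highest in striated muscle (30014 CPM), ahead of early airway smooth muscle (6184 CPM). Summed endothelial markers stayed at or below 84.8 CPM in every class and mouse. The female in hyperoxia, and all but 9 cells of the male, were sequenced in runs that held no other mouse, so run and hyperoxia cannot be told apart. The 4 males in normal air shared 1 run for nearly all their cells, and so did the females at E18.5 and P1, so a value within a run could be had for age but not for hyperoxia.

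Id3 was the most abundant of the 9 genes per length, and Chrdl1 the scarcest. Over 64 libraries, each a subtype in a mouse, the median level was 607 RPKM for Id3, 74.3 for Bmp4, 62.7 for Id1, 7.81 for Id4 and for Bmp5, 5.48 for Bmp3, 5.46 for Bmper, 2.08 for Bmp2 and 0.0096 for Chrdl1. Id3 and Id4 were read in all 64 libraries, while Chrdl1 was at 0 in 21 of them. The share of all cells with at least 1 read was 76.9% for Id3, 50.6% for Bmp4, 38.5% for Bmp3, 37.8% for Id4, 29.8% for Bmper, 29.1% for Id1, 28.6% for Bmp5, 9.16% for Bmp2 and 4.89% for Chrdl1. With each cell thinned to 100000 reads these shares were 76.7%, 47.6%, 34.1%, 31.6%, 25.3%, 27.7%, 25%, 7.53% and 3.39% in the same order, over 5312 cells.

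The 9 genes had different patterns by subtype. These are descriptions with no test, because the authors' subtypes were made from the expression of the same cells.

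**Figure D1:**
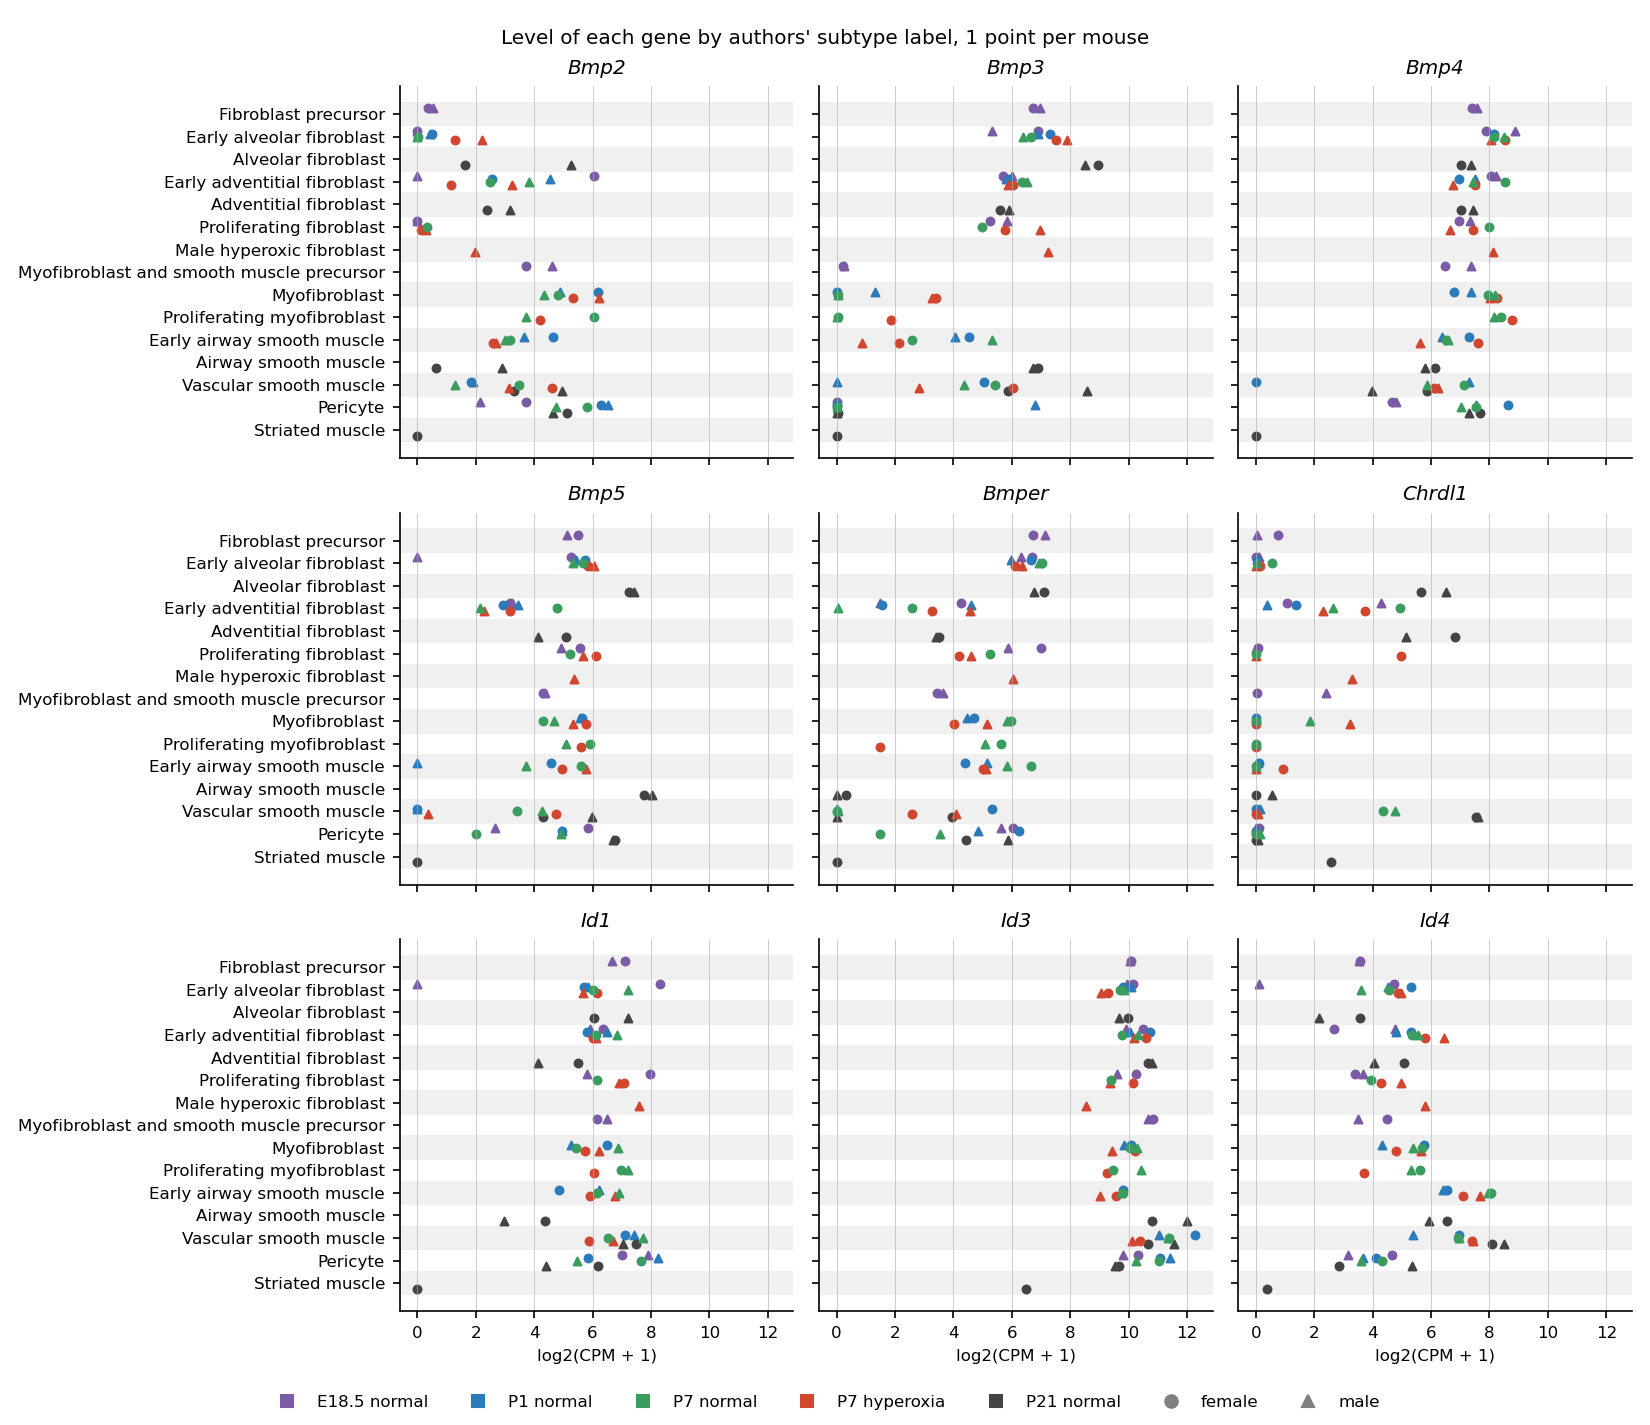
Level of each gene, as log2(CPM + 1), in each subtype the authors named, with 1 point per mouse and subtype of at least 10 cells, coloured by group, circles for females and triangles for males. Id3 lies furthest to the right in all subtypes, Chrdl1 has its highest points at P21, and Id4 peaks in the airway and vascular muscle rows.

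Bmp4 encodes a ligand that acts in the branching and alveolar stages of the lung. It was the broadest ligand, with medians from 61.7 CPM in airway smooth muscle to 334 CPM in proliferating myofibroblasts, and 0 in the 1 library of striated muscle. The order ran from proliferating myofibroblasts (284 to 438 CPM over 3 libraries) through early alveolar fibroblasts (237 to 469 over 8) and myofibroblasts (108 to 307 over 6) down to vascular smooth muscle (0 to 155 over 8). Ranges of neighbours in that order overlapped at every step above striated muscle, so the order is not resolved step by step.

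Bmp2 encodes a ligand closely related to BMP4. Its levels were highest in myofibroblasts, with a lowest value of 19.2, a median of 33.7 and a highest value of 73.3 CPM, and in pericytes, the contractile cells on capillaries, with 3.37, 29.7 and 91.2 CPM. Those ranges overlapped. In early alveolar fibroblasts Bmp2 had a median of 0.176 CPM and a highest value of 3.66 CPM, and 1.05% of cells held a read. In the alveolar class of the male at P21 it stood at 36.2 CPM, but all its reads came from 1 of 74 cells.

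Bmp3 encodes an unusual family member that is known to oppose other BMPs. It stood highest in the alveolar fibroblasts of P21, at 499 CPM in the female and 363 CPM in the male, without overlap with the next 2 subtypes by median. A vascular smooth muscle library, that of the male at P21, reached 382 CPM, within the alveolar range, although the median of that subtype was 36.8 CPM. Male hyperoxic fibroblasts, 55 cells of 1 mouse, held 149 CPM, early alveolar fibroblasts 39.0 to 236 CPM and fibroblast precursors 106 to 124 CPM, and these ranges overlapped. Myofibroblasts had a median of 0.761 CPM, and pericytes were at 0 in 5 of 8 libraries. A pericyte library of the male at P1 stood at 111 CPM, all of it from 1 of 20 cells.

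Bmp5 encodes a ligand of the branch that also holds BMP6 and BMP7. It stood highest in the airway smooth muscle of P21, at 215 CPM in the female and 263 CPM in the male, and next in the alveolar fibroblasts of P21, at 150 and 171 CPM. Neither pair overlapped the subtype after it. All other subtypes had medians of 47.6 CPM or less, and early adventitial fibroblasts had 8.1 CPM.

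Bmper encodes a secreted protein that binds BMPs and can dampen or promote their signal with dose. Its medians were highest in 3 subtypes. Fibroblast precursors held 106 to 138 CPM, alveolar fibroblasts 108 to 136 CPM and early alveolar fibroblasts 62.3 to 130 CPM, with overlapping ranges. Other subtypes reached into them, with highest libraries of 128 CPM in proliferating fibroblasts, 101 CPM in early airway smooth muscle and 75.2 CPM in pericytes. Male hyperoxic fibroblasts held 65.4 CPM in their 1 library. Adventitial fibroblasts, which surround airways and vessels, held 9.49 to 10.3 CPM. In the airway smooth muscle of P21 it stood at 0.235 CPM in the female and at 0 in the male, where 3 reads of the library's total would be 0.0668 CPM.

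Chrdl1 encodes chordin-like 1, a secreted BMP antagonist. It was read mainly at P21, with 112 and 34.5 CPM in adventitial fibroblasts of the female and the male and 49.7 and 91.2 CPM in their alveolar fibroblasts. In vascular smooth muscle it ranged from 0 to 192 CPM over 8 libraries. Pericytes did not exceed 0.114 CPM, and early alveolar fibroblasts did not exceed 0.463 CPM.

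Id genes encode helix-loop-helix proteins that lack a DNA-binding part and block the transcription factors they pair with. Id3 stood highest in the airway smooth muscle of P21 (1775 and 4108 CPM in female and male) and in vascular smooth muscle (lowest 1099, median 2350, highest 4932 CPM), with overlap between them. The lowest levels were 369 CPM in male hyperoxic fibroblasts and 89.1 CPM in striated muscle, each from 1 library, and neither overlapped its neighbour above. Id4 stood highest in muscle. Early airway smooth muscle held 83.3 to 263 CPM and vascular smooth muscle 40.6 to 360 CPM, against 3.51 to 10.8 CPM in alveolar fibroblasts of P21. In early airway smooth muscle 83.9% of cells held an Id4 read, and in fibroblast precursors 18.2%. By median, Id1 ran from 190 CPM in male hyperoxic fibroblasts (1 library) and 133 CPM in vascular smooth muscle to 13.3 CPM in the airway smooth muscle of P21. Its ranges were wide, with single libraries of early alveolar fibroblasts and pericytes at 315 and 302 CPM. The airway smooth muscle of P21 thus held the highest median of Id3 and, striated muscle aside, the lowest of Id1.

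The number of ligand genes read per cell differed between groups. Of early alveolar fibroblasts at P7 in normal air, thinned to equal reads, 27.9% held none of the 4 ligands and 38.8% held 2 or more. Of vascular smooth muscle cells at P7, 66.7% held none and 9.26% held 2 or more. In hyperoxia at P7 the share with 2 or more was 73.3% in early alveolar fibroblasts and 76.7% in myofibroblasts, where it was 16.4% in normal air. In the other 3 classes compared, from normal air to hyperoxia the share was 30.4% and 32.9% in early adventitial fibroblasts, 13% and 19.2% in early airway smooth muscle, and 9.26% and 7.14% in vascular smooth muscle. These shares pool the cells of 2 mice, each cell thinned to equal reads. Before thinning, hyperoxia libraries of alveolar fibroblasts and myofibroblasts also held more genes per cell, a count not made at equal reads. The median was 4028 and 5167 genes in the female's and male's alveolar fibroblasts in hyperoxia, against 2782 and 2628 in normal air, and in myofibroblasts 5111 and 6609 against 2864 and 2833.5. The part of this in the ligand shares was not tested.

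Correlations between the members ranged from -0.44 to 0.37. Over the 64 libraries, which share mice and the total reads of each library, the log2(CPM + 1) of Id1 and Id3 had r = 0.30, Id3 and Id4 0.32, Id1 and Id4 0.35, Bmp4 and Bmp5 0.33, Bmp4 and Bmper 0.29, and Bmp2 and Bmp3 -0.44. Bmp4 had r = -0.04 with Id3 and 0.15 with Id1. By the same measure, the 2 genes most like each member among 14019 were Slc1a3 (0.85) and Cped1 (0.82) for Bmp3, Fstl1 (0.76) and Dstn (0.75) for Id4, Tmem204 (0.75) and Ift22 (0.72) for Bmp4, and Trrap and Smarcb1 (0.75 each) for Id1. They were Ttyh2 (0.72) and Eng (0.71) for Bmp2, Ppp1r15a (0.72) and Emp3 (0.69) for Id3, Ptges (0.68) and Foxf2 (0.64) for Bmp5, Nol4l (0.67) and Ctdspl (0.66) for Bmper, and Prss23 and Steap4 (0.64 each) for Chrdl1.

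Levels were then compared between groups within a class, with mice as the replicates. Read counts were tested with edgeR's quasi-likelihood test, with terms for group and sex, and p was adjusted by Benjamini-Hochberg over all genes of a comparison, with 0.05 as the threshold. Classes with 2 mice of at least 10 cells in both groups were compared, which gave 19 comparisons. Of 171 member tests 165 could be made, since Bmp3 and Chrdl1 in pericytes did not pass the filter on low counts. The labels used here do not say whether mice came from separate litters, so p-values measure the spread between these mice. With 2 mice against 2, groups without overlap are common: of all genes that averaged 10 CPM or more in either group, 35.7% to 52% did not overlap, depending on the comparison, so that lack of overlap alone sets no member apart. Folds below are from that fit, on the log2 scale, as the later group minus the earlier one or hyperoxia minus normal air.

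Between E18.5 and P1, around birth, 0 of 25 member tests passed. At an unadjusted edgeR p under 0.05 there were 4, or 16%. Of all genes, 21% were under it in alveolar fibroblasts, 9.23% in adventitial fibroblasts and 5.4% in pericytes. DESeq2 called 3 member tests, and over all genes it called 3609, 789 and 670 in the same order of classes. At the adjusted threshold edgeR called 6.16% of all genes in alveolar fibroblasts, 0.17% in adventitial fibroblasts and 0.042% in pericytes. In pericytes Bmp4 stood at 24.3 CPM in the female and 26.7 CPM in the male at E18.5, and at 399 and 185 CPM at P1. The E18.5 mice were below the P1 mice with no overlap, and the log2 difference was 3.40 (SE 0.74, edgeR adjusted p = 0.304). It was 3.98 within the run of the females and 2.75 within that of the males, as log2(CPM + 1).

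Bmp2 in pericytes followed the same order, with 12.2 and 3.37 CPM at E18.5 and 76.6 and 91.2 CPM at P1 (log2 difference 3.69, SE 1.55, edgeR adjusted p = 0.845). Id3 in pericytes stood at 1271 and 896 CPM before birth and at 2131 and 2712 CPM at P1 (1.18, SE 0.45, edgeR adjusted p = 0.83). None of the 3 overlapped between ages. DESeq2 called Bmp4 (adjusted p = 0.000199) and Bmp2 (0.0164) but not Id3. These pericyte libraries rest on 14 to 23 cells each, and single cells held 38.0% and 30.4% of the Bmp4 reads at P1 and 78.8% and 48.5% at E18.5.

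In adventitial fibroblasts Bmp4 stood at 262 and 301 CPM at E18.5 and at 123 and 180 CPM at P1, the opposite order to pericytes, again with no overlap (log2 difference -0.90, SE 0.45, edgeR adjusted p = 0.566). Chrdl1 there was at 1.09 and 18.3 CPM at E18.5 and 1.58 and 0.313 CPM at P1, with overlap, and 99% of the reads of the higher library came from 1 cell. Its fitted log2 difference of -4.25 (SE 1.49, edgeR adjusted p = 0.461) turned to 0.34 without the male of E18.5.

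Alveolar fibroblasts at E18.5 were few, 14 and 24 cells, with medians of 1042 and 1232 genes per cell against 2878.5 and 3001 at P1. The 760 fibroblast precursors of E18.5 were not in this class, although their median on the alveolar marker list was 5338 CPM. All tested genes together had a median log2 difference of 1.35 in that comparison, so member values are read relative to it. The members had a median of -0.13. Bmp4 stood at 237 and 469 CPM before birth and at 285 and 284 CPM at P1, Id3 at 1132 and 992 and then 896 and 1089 CPM, and both overlapped. Id1 stood at 315 CPM in the female and 0 in the male at E18.5, and its fitted log2 difference of -1.25 became 16.48 without the female and -2.65 without the male. Over all 3 classes compared between these ages, 5 member tests passed without the E18.5 female and 1 without the male. The alveolar library of the E18.5 female also held 1082 CPM of the 6 epithelial markers, against 25.9 CPM in the male and 121 and 100 CPM at P1. It held 261 CPM of the 6 immune markers, against 9.36 CPM in the male and 16.9 and 22.2 CPM at P1. Their part in these values was not tested.

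Between P1 and P7, 0 of 52 member tests passed in the 6 classes. The background was the same: edgeR called 0% of all genes in any of the 6 comparisons. At an unadjusted edgeR p under 0.05 there were 6 member tests, or 11.5%, against 2.36% to 8.01% of all genes by class. DESeq2 called 4 member tests, and 215 to 686 of all genes by class. Id4 in airway smooth muscle stood at 92.6 and 83.3 CPM at P1 and at 263 and 244 CPM at P7. Both P7 mice were above both P1 mice, and the log2 difference was 1.48 (SE 0.42, edgeR adjusted p = 0.89), with 1.54 within the males' run. Bmper there stood at 20.0 and 34.2 CPM and then at 101 and 56.4 CPM, without overlap (1.32, SE 1.17, edgeR unadjusted p = 0.29).

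Myofibroblasts, the contractile cells that form alveolar septa, showed 4 members without overlap between P1 and P7, of the 7 that averaged 10 CPM or more at either age, where 41.9% of all genes at that level did not overlap. Bmp4 stood at 108 and 163 CPM at P1 and 247 and 293 CPM at P7 (log2 difference 0.95, SE 0.35, edgeR adjusted p = 0.595). Bmper stood at 25.3 and 21.0 and then 61.5 and 56.7 CPM (1.31, SE 0.63, edgeR adjusted p = 0.639). The other two were lower at P7: Bmp5 stood at 49.3 and 46.9 and then 18.8 and 24.7 CPM, and Bmp2 at 72.2 and 28.3 and then 26.9 and 19.2 CPM. Their log2 differences were -1.20 (SE 0.55, edgeR adjusted p = 0.629) and -1.11 (SE 0.65, edgeR adjusted p = 0.671).

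Chrdl1 was the member with the smallest unadjusted p in this step, in vascular smooth muscle. It was read at 0 and 0.0947 CPM at P1, 1 read in all, and at 19.4 and 26.0 CPM at P7. The ratio of the summed reads was 493, with a counting interval of 88.3 to 19491 (95%, exact conditional), and the edgeR adjusted p was 0.668. At P7, however, 1 cell held 100% of the female's reads and 99.1% of the male's, of 27 and 31 cells. Chrdl1 in adventitial fibroblasts stood at 1.58 and 0.313 CPM at P1 and 28.3 and 5.21 CPM at P7 (log2 difference 4.24, SE 1.39, edgeR adjusted p = 0.829), and 1 cell held 76.9% and 86.3% of the P7 reads.

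Between P7 and P21, 1 of 43 member tests passed, Bmper in airway smooth muscle. At an unadjusted edgeR p under 0.05 there were 11, or 25.6%, against 4.66% to 10.5% of all genes by class. DESeq2 called 7 member tests, and 446 to 1169 of all genes by class. At the adjusted threshold edgeR called 1.13% of all genes in airway smooth muscle and 0.0702% in alveolar fibroblasts. It called 0.124% in adventitial fibroblasts, 0.0886% in vascular smooth muscle and 0.0504% in pericytes. Airway smooth muscle at P21 was mainly the authors' later subtype (113 of 119 cells) and at P7 their early subtype, so age and subtype label move together.

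Bmper stood at 101 CPM in the female and 56.4 CPM in the male at P7, and at 0.222 and 0 CPM at P21. Both P21 mice lay far below both P7 mice. Bmper fell by 9.21 on the log2 scale (SE 1.64, edgeR adjusted p = 0.0344), and by 5.84 within the males' run as log2(CPM + 1). At P7 24 of 75 cells of the female and 17 of 64 of the male held a read, and at P21 2 of 62 and 0 of 57, with 10348 and 3526 reads against 12 and 0. Over the alternatives run, the log2 difference ranged from -7.87 with cells thinned to equal reads to -14.83 without the P21 female. The call was lost without any 1 of the 4 mice of P7. These include the hyperoxia mice, which enter the fit through the spread, the sex term, the normalization and the gene filter. The call was also lost with only the 4 mice compared (edgeR adjusted p = 0.0921) and with all classes in 1 fit (0.169).

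The Id genes differed in order in the same cells. Id3 stood at 893 and 850 CPM at P7 and at 1685 and 4023 CPM at P21, with no overlap and a log2 difference of 2.02 (SE 0.42, edgeR adjusted p = 0.0669). The difference missed the threshold, and it was 1.25 without the P21 male and 2.65 without the P21 female, where it passed (0.0118). It also passed with DESeq2 (0.000106) and in the fit with no term for sex (0.0416), and over the alternatives run its adjusted p ranged from 0.000106 to 0.538. Id1 stood at 70.7 and 118 CPM and then at 18.6 and 32.3 CPM (-1.54, SE 0.54, edgeR adjusted p = 0.348), and Id4 at 263 and 244 and then 127 and 92.5 CPM (-0.85, SE 0.41, edgeR adjusted p = 0.514). Neither overlapped. The 8 genes of a list induced by tissue dissociation, Fos and Jun among them, summed to 10167 and 7889 CPM at P7 and 34220 and 25470 CPM at P21, with none at 0. The part of dissociation in the Id3 values was not tested.

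Of the ligands of airway smooth muscle, Bmp5 and Bmp3 were higher in both mice of P21, without passing the test. Bmp5 stood at 47.2 and 12.2 CPM at P7 and at 203 and 245 CPM at P21 (log2 difference 3.75, SE 1.71, edgeR adjusted p = 0.49), and Bmp3 at 4.92 and 39.2 and then 134 and 107 CPM (2.78, SE 1.10, edgeR adjusted p = 0.415). The share of cells with a Bmp5 read was 21.3% and 20.3% at P7 and 61.3% and 40.4% at P21. Over the 9 members the median log2 difference was -0.38, against -0.09 over all genes tested.

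**Figure D2:**
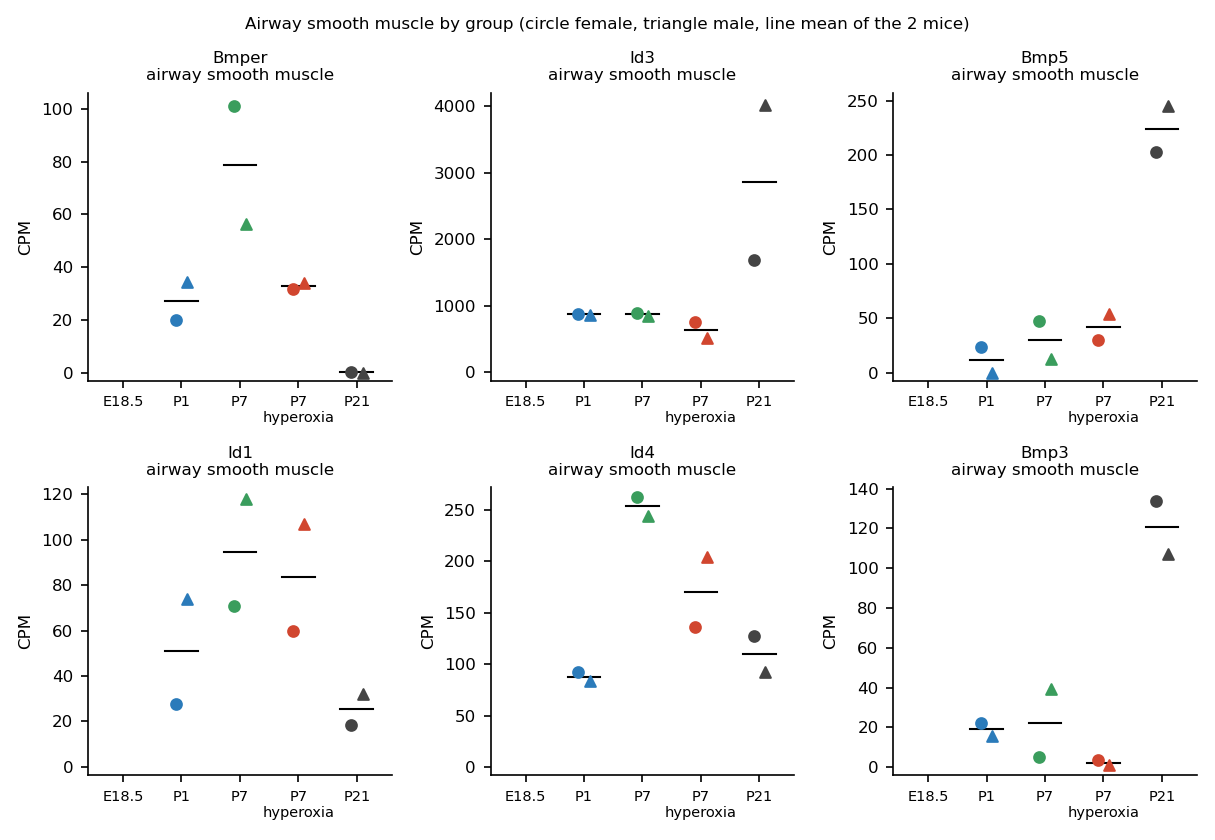
CPM of 6 members in airway smooth muscle by group, with 1 point per mouse and the mean of the 2 mice as a line. E18.5 is empty because no mouse held 10 such cells. Bmper is near 0 in both mice of P21, while Id3, Bmp5 and Bmp3 are highest there.

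Alveolar fibroblasts, which lie beside the air sacs, gave no member past the threshold between P7 and P21 in the fit of all mice. At P21 they were mainly the authors' later subtype (250 of 256 cells). Bmp3 stood at 101 and 81.6 CPM at P7 and 500 and 356 CPM at P21, above P7 in both mice (log2 difference 2.52, SE 0.51, edgeR adjusted p = 0.268). Bmp5 stood at 49.7 and 39.4 and then 150 and 168 CPM (2.24, SE 1.78, edgeR adjusted p = 0.855, and 1.32 without the P21 male). Chrdl1 stood at 0.463 and 0.036 and then 49.6 and 89.5 CPM (9.25, SE 2.20, edgeR adjusted p = 0.419).

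That fit also holds the sparse E18.5 libraries, which enter the spread. Without both E18.5 mice, an alternative chosen after seeing the data, Bmp3 (log2 difference 2.53, adjusted p = 0.0154), Bmp5 (2.16, 0.0382) and Chrdl1 (9.37, 0.0447) passed edgeR's test. DESeq2 with all mice called Bmp3 (adjusted p = 5.09e-05) and Chrdl1 (5.82e-08), not Bmp5. It also called Bmp2 (2.07e-07), which stood at 0.00441 and 0 CPM at P7 and at 2.13 and 36.2 CPM at P21, the last from 1 cell (edgeR adjusted p = 0.399). For Chrdl1 the share of cells with a read was 0.917% and 2.72% at P7 and 18.7% and 17.6% at P21. Within the males' run the log2(CPM + 1) differences were 2.11 for Bmp3, 2.07 for Bmp5 and 6.45 for Chrdl1. Bmp4 had the opposite order, at 286 and 362 CPM at P7 and 128 and 165 CPM at P21, without overlap (-0.83, SE 0.51, edgeR adjusted p = 0.778), and Bmper overlapped at 130 and 121 and then 136 and 106 CPM.

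**Figure D3:**
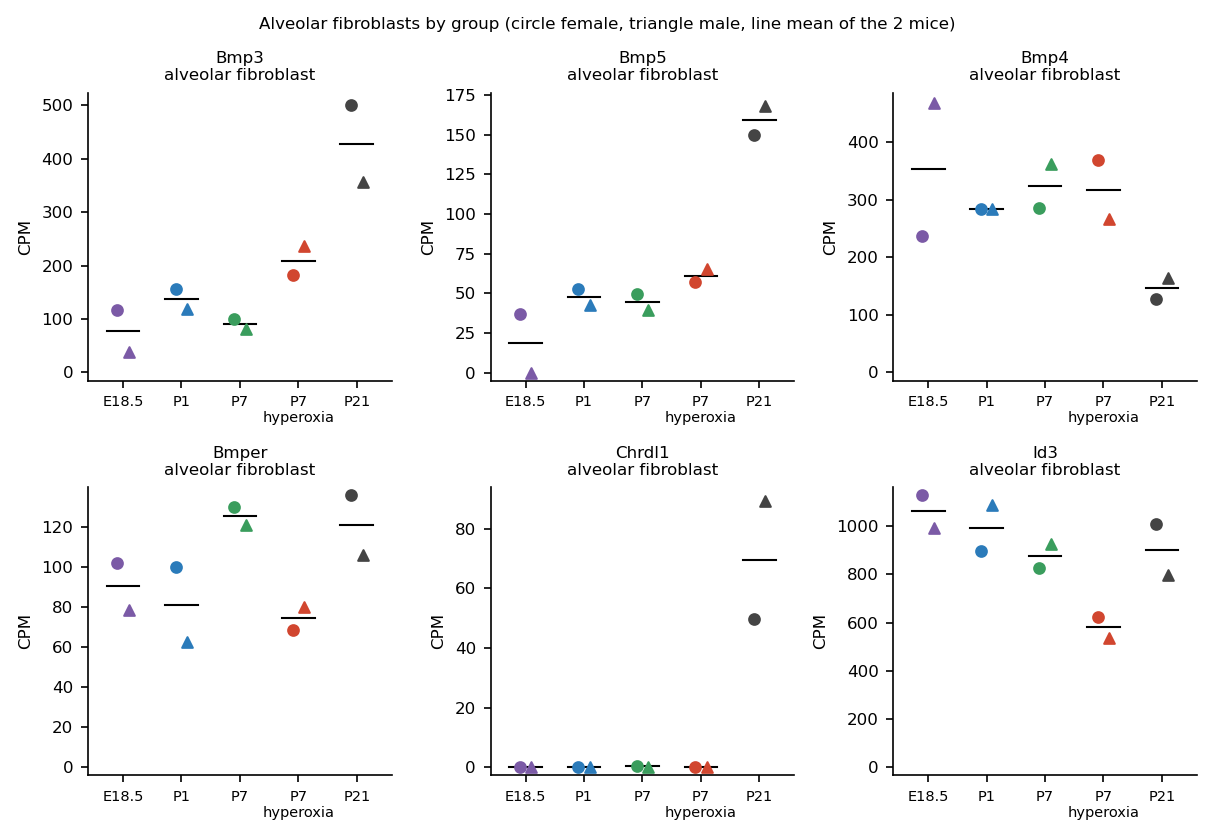
CPM of 6 members in alveolar fibroblasts by group, with 1 point per mouse and the mean of the 2 mice as a line. Bmp3, Bmp5 and Chrdl1 are highest at P21 and Bmp4 lowest there, and in hyperoxia at P7 Bmp3 lies above and Bmper and Id3 lie below the mice in normal air.

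In vascular smooth muscle Chrdl1 stood at 19.4 and 26.0 CPM at P7 and 183 and 192 CPM at P21, where 11 of 33 and 6 of 19 cells held a read (log2 difference 3.24, SE 1.15, edgeR adjusted p = 0.614). Id4 stood at 121 and 122 and then 272 and 360 CPM (1.56, SE 0.69, edgeR adjusted p = 0.689). Both were higher in both P21 mice. In adventitial fibroblasts Chrdl1 stood at 28.3 and 5.21 CPM and then at 109 and 34.5 CPM, without overlap (2.39, SE 1.28, edgeR adjusted p = 0.541).

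Pericytes showed Bmp5 at 3.04 and 28.9 CPM at P7 and at 107 and 102 CPM at P21 (log2 difference 2.78, SE 1.66, edgeR adjusted p = 0.956). Their Id3 stood at 2083 and 1205 and then 806 and 746 CPM (-1.03, SE 0.45, edgeR adjusted p = 0.955). Both were without overlap, and the Id3 order was opposite to that in airway smooth muscle.

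Hyperoxia at P7 gave 0 calls in 45 member tests over 5 classes. At an unadjusted edgeR p under 0.05 there were 7, or 15.6%, against 2.57% to 8.01% of all genes by class. DESeq2 called 3 member tests, and 129 to 389 of all genes by class. The background at the adjusted threshold of edgeR was 0% of genes in each of the 5 comparisons. The 55 male hyperoxic fibroblasts, with 9095 CPM on the alveolar marker list, were in none of these classes. Id3 was lower in both hyperoxia mice in 3 classes. In alveolar fibroblasts it stood at 828 and 927 CPM in normal air and 625 and 535 CPM in hyperoxia (log2 difference -0.73, SE 0.31, edgeR adjusted p = 1). In vascular smooth muscle it stood at 2651 and 2584 and then 1328 and 1099 CPM (-1.36, SE 0.54, edgeR adjusted p = 1). In airway smooth muscle it stood at 893 and 850 and then 752 and 516 CPM (-0.47, SE 0.41, edgeR adjusted p = 1). It overlapped in adventitial fibroblasts (856 and 1303, then 1533 and 1161 CPM) and in myofibroblasts (1067 and 1240, then 1182 and 694 CPM).

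Bmper was likewise lower in both hyperoxia mice in 3 classes, the alveolar fibroblasts, myofibroblasts and airway smooth muscle. It stood at 130 and 121 CPM in normal air and 68.5 and 80.0 CPM in hyperoxia in alveolar fibroblasts (log2 difference -0.89, SE 0.54, edgeR adjusted p = 1). In myofibroblasts it stood at 61.5 and 56.7 and then 15.1 and 34.9 CPM (-1.35, SE 0.64, edgeR adjusted p = 0.8), and in airway smooth muscle at 101 and 56.4 and then 31.5 and 34.0 CPM (-1.17, SE 1.15, edgeR adjusted p = 1). In adventitial fibroblasts it was higher, at 4.7 and 0.0324 and then 8.5 and 22.5 CPM. Those adventitial libraries held 575 and 654 CPM of 4 mesothelial markers in hyperoxia and 208 and 0.0648 CPM in normal air. Of the 4 only Msln was at 0, in the male in normal air, and their part in the value was not tested.

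Bmp3 in alveolar fibroblasts stood at 101 and 81.6 CPM in normal air and 182 and 236 CPM in hyperoxia, above in both mice (log2 difference 1.09, SE 0.48, edgeR adjusted p = 1). The share of cells with a read was 49.5% and 37.4% in normal air and 76.4% and 86.8% in hyperoxia, and 44.3%, 32.6%, 71.3% and 80.9% at equal reads. Before thinning and over both mice together, the share also rose for Bmp4, from 59.5% to 79.7%. It rose for Id3 from 67.1% to 79.3%, although Id3 had lower CPM in hyperoxia. Only for Chrdl1 did it fall, from 1.64% to 0.661%. In adventitial fibroblasts Bmp3 was lower in hyperoxia, at 65.4 and 57.3 against 77.0 and 90.5 CPM (-0.62, SE 0.41, edgeR adjusted p = 0.707). In myofibroblasts it stood at 0.0301 and 0.0282 and then at 9.46 and 8.51 CPM, called by DESeq2 (adjusted p = 0.00885) and not by edgeR (0.76), with 93.9% and 52.8% of the hyperoxia reads in 1 cell.

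Myofibroblasts in hyperoxia stood above those in normal air for 2 more ligands, with no overlap. Bmp2 was at 26.9 and 19.2 CPM in normal air and 39.0 and 73.3 CPM in hyperoxia (log2 difference 1.31, SE 0.66, edgeR adjusted p = 0.813), and 20.0% and 21.7% against 56.9% and 77.8% of cells held a read. Bmp5 was at 18.8 and 24.7 and then 53.5 and 39.5 CPM (1.06, SE 0.55, edgeR adjusted p = 0.813). Bmp4 overlapped, at 247 and 293 and then 307 and 258 CPM. Shares of cells with a read, before thinning, also rose for members whose level did not. Over both mice together they went from 50.7% to 91.3% for Bmp4 and from 22.7% to 47.6% for Bmper, which had lower CPM in hyperoxia. Only for Id4 did the share fall, from 52.8% to 48.5%. The rise in share alone thus does not set Bmp2 apart.

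Chrdl1 in vascular smooth muscle had the smallest unadjusted p of the hyperoxia tests. It stood at 19.4 and 26.0 CPM in normal air and at 0 and 0.0561 CPM in hyperoxia, 1 read in all. The ratio of summed reads was 645 (95% counting interval 116 to 25499, edgeR adjusted p = 1). As 1 cell in each mouse in normal air held 99.1% or more of the reads, the difference rests on 2 cells. DESeq2 called it (adjusted p = 2.29e-06). It also called Bmp2 in alveolar fibroblasts (0.00125), which was at 0.00441 and 0 CPM in normal air and at 1.43 and 3.66 CPM in hyperoxia, where 1 of 212 and 7 of 242 cells held a read.

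**Figure D4:**
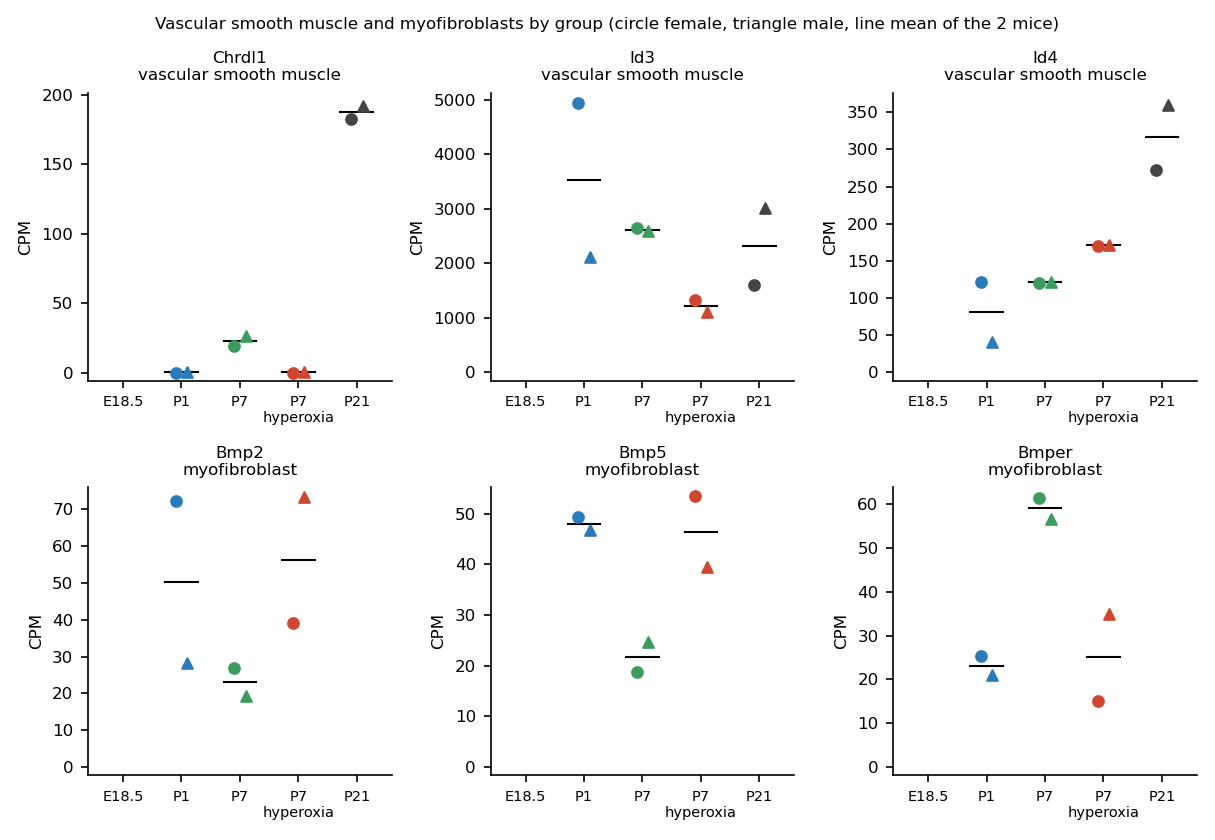
CPM of Chrdl1, Id3 and Id4 in vascular smooth muscle and of Bmp2, Bmp5 and Bmper in myofibroblasts by group, with 1 point per mouse and the mean of the 2 mice as a line. Both hyperoxia mice lie below both P7 mice in normal air for Id3 and for Bmper, and above them for Bmp2 and Bmp5.

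**Figure D5:**
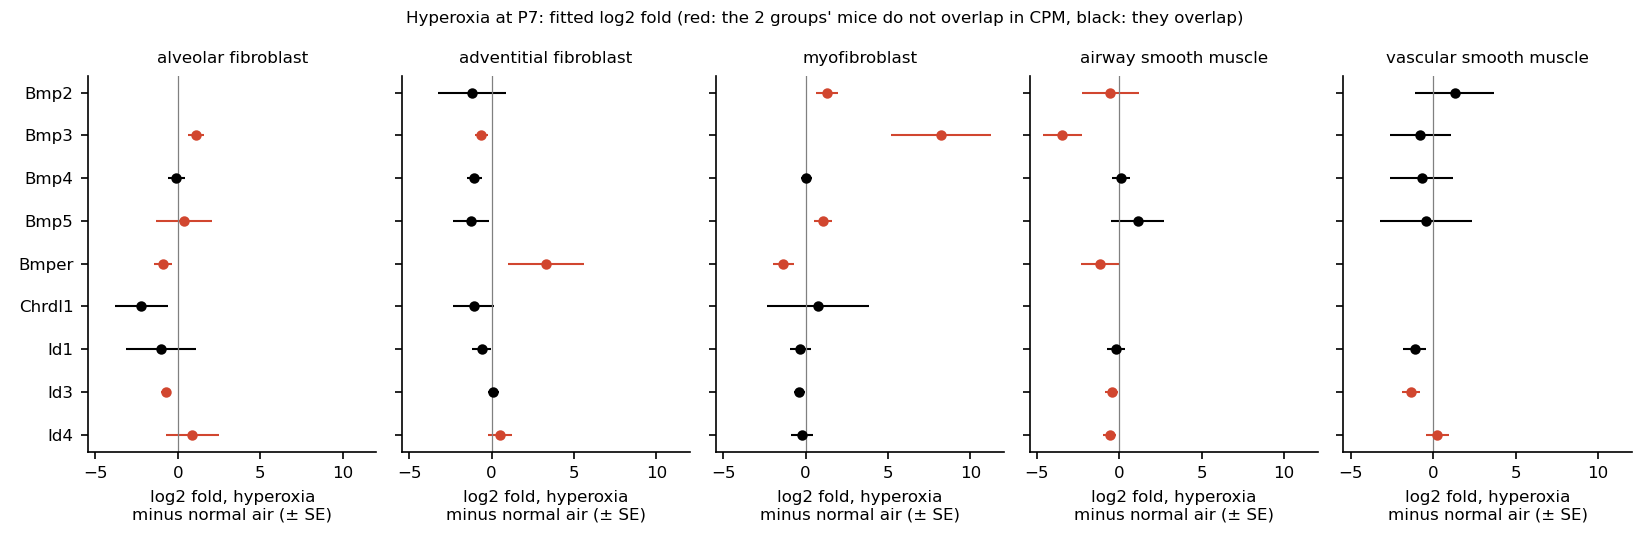
Fitted log2 fold of hyperoxia over normal air at P7 with its SE, for each member and class, red where the CPM of the 2 groups' mice do not overlap. Folds with 3 or fewer reads in a group are left out. No value passed the test, and Id3 and Bmper lie left of 0 in 4 and 3 of the classes drawn.

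Of 56 other genes of the pathway, 51 were in the table. Per library the 8 with the highest mean CPM were Fstl1 (2560), Id2 (532), Eng (248), Nbl1 (246), Bmp1 (177), Bambi (121), Twsg1 (117) and Hes1 (116). In airway smooth muscle between P7 and P21, 42 genes of the list were tested. The list's median log2 difference was -0.15, against -0.09 for all genes. Fstl1, a secreted glycoprotein that can bind BMP4, stood at 5979 and 5809 CPM at P7 and 1396 and 2208 CPM at P21 (-1.40, SE 0.30, edgeR adjusted p = 0.0737). Id2 stood at 1183 and 1519 and then 287 and 576 CPM (-1.36, SE 0.33, edgeR adjusted p = 0.116). Id1, Id2 and Id4 were thus lower, and Id3 higher, in both mice of P21.

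In alveolar fibroblasts between E18.5 and P1, 5 of 49 rose and 1 fell. Over all 15670 genes tested there were 966 calls, or 6.16%, 956 of them upward. The list's median log2 difference was 1.13, against 1.35 for all genes. The 5 of the list that rose were Acvr1, a receptor, the antagonists Fstl3 and Nbl1, and the signal carriers Smad1 and Smad4. Hey1, a response gene, fell by 5.15 on the log2 scale (SE 1.23, edgeR adjusted p = 0.05). Nbl1 was at 0 in both E18.5 libraries and at 157 and 109 CPM at P1. Against 3 reads over the E18.5 group that would be 704-fold. This figure covers counting error only, not the spread between the 38 cells of E18.5, and is no firm lower limit. These calls lean on the sparse E18.5 libraries described above. In 17 of the 19 comparisons, those of the alveolar step around birth and of airway smooth muscle between P7 and P21 left aside, 0 of the tested genes of the list passed edgeR's test. Among them, Twsg1 in alveolar fibroblasts stood at 133 and 73.7 CPM at P7 and 483 and 463 CPM at P21 (log2 difference 2.54, SE 0.53, edgeR adjusted p = 0.284). Bambi in vascular smooth muscle stood at 234 and 165 and then 49.6 and 17.7 CPM (-2.49, SE 0.68, edgeR adjusted p = 0.452).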

How the data were processed

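Single mesenchymal cells of mouse distal lung were sorted into plates and sequenced by a Tn5 transposase method with no molecular identifiers, per the labels. The deposited values are whole read counts per gene and cell. STAR 2.5.2b, HTSeq 0.10 and the build GRCh38 are named in the submitters' processing notes; that build is human although the organism is mouse, and no coordinate was taken from it. Cell subtypes are those the authors deposited, no doublet caller was run, and 69 cells carry CD31 and 2 CD45 as their sort label.

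Reads were summed per mouse and class (early and later subtypes of a name joined), keeping mice with at least 10 cells. The edgeR 4.0.16 quasi-likelihood test (R 4.3.3) used TMM factors (0.77 to 1.19), filterByExpr and terms for group and sex, with all groups of a class in 1 fit and Benjamini-Hochberg adjustment over all genes of a comparison. Sex is the replicate letter of the labels, so it also serves as the replicate block. CPM are plain, over total reads, and within-run differences are of log2(CPM + 1). Fits held 6 to 10 libraries with 2 to 4 residual degrees of freedom. Cells were thinned to 100000 reads for shares at equal depth, which left out 168 cells. Intervals cover counting error only, and reads without molecular identifiers are not independent molecules. DESeq2 1.42.0 and the other alternatives are given in the closing section. The fits were tested on simulated data with changes put in. The changed genes were drawn from all genes averaging 10 reads or more per library, so the rates are not those at the members' own levels. Over the 19 comparisons, 0% to 17% of 4-fold changes were recovered (median 3.0%), and 28% to 67% of 64-fold changes (median 52.0%). A test that did not pass therefore does not show that a level was unchanged.

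The members and gene lists were chosen with earlier results of these data known. Named besides the 9 members are, of the other pathway genes, those called, with the exception given below, and the 8 with the highest mean CPM, and for each member the 2 genes with the highest correlation. A result for 1 gene of the pathway list is not reported here.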

Additional observations from a re-analysis of the deposited data

Results flagged for a closer look

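In 11 cases a member was higher in both mice of the later or treated group in 1 class and lower in both in another. Each value is the widest gap between the log2 differences of such classes, and the difference was not tested in any of them. Such cases were 11 of 35 pairs of a member and a step in which the gene averaged 10 CPM or more in either group in 2 or more classes, against 24.1% of the same pairs over all genes, and nothing particular to the members is read from their number. Between E18.5 and P1, Bmp4 was higher in pericytes and lower in adventitial fibroblasts, with a gap of 4.30.

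Between P1 and P7, Bmp3 was higher in adventitial and lower in alveolar fibroblasts, by 1.27. Bmp5 was higher in vascular smooth muscle and lower in myofibroblasts and pericytes, by 12.24, a value that rests on 0 reads in vascular smooth muscle at P1. Bmper was higher in alveolar fibroblasts, myofibroblasts and airway smooth muscle and lower in pericytes, by 4.73.

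Between P7 and P21, Bmper was higher in adventitial fibroblasts and pericytes and lower in airway smooth muscle, by 12.41. Bmp3 was higher in alveolar fibroblasts and both kinds of smooth muscle and lower in adventitial fibroblasts, by 4.48. Id3 was higher in adventitial fibroblasts and airway smooth muscle and lower in pericytes, by 3.05. Id4 was higher in vascular smooth muscle and lower in airway smooth muscle and both kinds of fibroblast, by 2.67.

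In hyperoxia at P7, Bmper was higher in adventitial fibroblasts and vascular smooth muscle and lower in alveolar fibroblasts, myofibroblasts and airway smooth muscle, by 10.12, with 1 read in all in vascular smooth muscle in normal air. Bmp3 was higher in alveolar fibroblasts and lower in adventitial fibroblasts and airway smooth muscle, by 4.55. Id4 was higher in both kinds of fibroblast and vascular smooth muscle and lower in airway smooth muscle, by 1.48.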

How the results depend on the processing

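Counts of member calls were 0 between E18.5 and P1, 0 between P1 and P7, 1 between P7 and P21 and 0 in hyperoxia. With DESeq2 they were 3, 4, 7 and 3, where it called 129 to 3609 of all genes, depending on the comparison. With cells thinned to equal reads the counts between E18.5 and P1 and between P7 and P21 were 4 and 6, and with at least 20 cells per mouse 4 and 3. The count between P7 and P21 was 2 with no filter on low counts, 2 with only the mice compared, 2 with no replicate block (no term for sex) and 4 without both E18.5 mice, an alternative chosen after seeing the data. The replicate block changed no other count. Leaving out 1 mouse at a time gave 0 to 5, 0 to 0, 0 to 3 and 0 to 0. The count between P7 and P21 was 0 without either P7 mouse in normal air or either in hyperoxia, and 3 without either E18.5 mouse. The cause was not tested. Chrdl1 in adventitial fibroblasts between E18.5 and P1 turned from -4.25 to 0.34 on the log2 scale without the E18.5 male and was -5.66 without the E18.5 female. Id1 in alveolar fibroblasts turned from -1.25 to 3.39 with only the mice compared, 13.37 with thinned cells, and 16.48 with at least 20 cells per mouse or without the E18.5 female, and was -2.65 without the E18.5 male. Of the other values, 394 kept their direction and side of the threshold, 47 passed it only in the alternative and 6 lost it. The subtype with the highest level was the same for 8 of 9 members with the mean of the cells' own CPM and without cells sorted with CD31 or CD45. With 2 mice per group, depth per class rests on the 10 cells or more in each mouse.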
